A study of Rattus norvegicus with 32 samples.

Results

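Of 32 RNA sequencing libraries labelled as nucleus accumbens shell of the rat, 6 held a Slc17a6 level of at least 18 CPM, and they are compared here with the other 26. Slc17a6 encodes VGLUT2, the vesicular glutamate transporter of most subcortical excitatory neurons, and CPM is a gene's count scaled to a common library total. The members were chosen from these same measurements by that 1 gene. Every difference between the 6 and the 26 is therefore a description, also for the genes that the rule did not name. Genes are counted as called where they passed edgeR's threshold, but no p-value of this comparison is printed and none supports a statement.

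The accumbens shell is a striatal region, and most of its neurons are GABAergic spiny neurons that carry dopamine receptors. It is bordered by the septum, the diagonal band and the ventral pallidum. These hold what the shell has little of: glutamatergic VGLUT2 neurons, fast-firing GABAergic projection neurons and large cholinergic neurons, many of them derived from embryonic domains marked by the transcription factors Nkx2-1, Lhx6, Lhx8 and Gbx1. The labels do not record where each dissection ended, and whether it reached these regions was not tested.

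The rats, labelled as wild type, were shocked while exposed to either a neutral cue or a lemon odour, here called the anxiety cue, which then accompanied tests of anxiety. Before these tests they were given vehicle or cannabidiol (CBD, a cannabis compound that does not intoxicate). Tissue was taken after a final shock, which every group received. Each combination of drug and cue was represented by 8 libraries, which made 4 groups: the neutral cue after vehicle or after CBD, and the anxiety cue after vehicle or after CBD. The labels give neither the age or strain of the rats nor a separate rat for each library, so p-values measure only the spread between libraries, which may be technical. Libraries are named by group and by a number that follows the order of deposition.

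Among the vehicle libraries, the 6 comprised neutral-cue libraries 4, 7 and 8 and anxiety-cue library 5. Among the CBD libraries they comprised anxiety-cue libraries 2 and 7. No CBD neutral-cue library reached 18 CPM. Total counts were 11.65 to 20.5 M in the 6 (median 17.38 M) and 13.56 to 24 M in the others (median 17.98 M), so the 6 were slightly shallower. The 20 most abundant genes took 4.56 to 5.29% of their counts against 4.16 to 5.17%. On the first principal component of log2 CPM, which held 26.5% of the variance, the 6 lay between 33.53 and 74.18 and the others between -38.66 and 16.68.

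Slc17a6 reached 47.0 CPM in vehicle anxiety-cue library 5. In the vehicle neutral-cue libraries it was 38.2 CPM in library 4, 37.1 CPM in library 7 and 40.9 CPM in library 8. CBD anxiety-cue library 2 held 32.96 CPM and library 7 held 20 CPM. The lowest of the 6 was thus set apart from the other 5, and the 26 ranged from 0.208 to 16.8 CPM with a median of 3.86 CPM. Just inside the threshold, CBD anxiety-cue library 7 had a 95% Poisson interval of 17.9 to 22.3 CPM. Just outside it, CBD neutral-cue library 6 held 16.8 CPM (14.9 to 18.9). These intervals cover counting error only, and they overlap.

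The 2 further markers named for this tissue, Gbx1 and Lhx8, separated the same libraries with no overlap. In 4.67% of all genes tested the 6 likewise lay above all 26. Both markers were named with earlier results of these data known, so their separation is a description and no independent support. Gbx1, a homeobox factor of basal forebrain and pallidal neurons, was at 20.1, 6.87 and 12.0 CPM in vehicle neutral-cue libraries 4, 7 and 8, 9.94 CPM in vehicle anxiety-cue library 5, and 8.34 and 12.7 CPM in libraries 2 and 7 of the CBD anxiety-cue group. The other 26 held 0.228 to 5.72 CPM. Lhx8, a LIM homeobox factor of cholinergic neurons and their lineage, was in the same order at 96.8, 55.3, 74.1, 79.7, 56.2 and 53.8 CPM, against 6.03 to 32.0 CPM. Vehicle neutral-cue library 4 was highest of all 32 for both genes, although its Slc17a6 did not rank highest.

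The library just below the threshold did not share these markers. CBD neutral-cue library 6 held Gbx1 at 0.344 CPM and Lhx8 at 6.03 CPM, and its Lhx8 was the lowest of all libraries. It held Slc17a7, the VGLUT1 transporter of cortical excitatory neurons, at 877 CPM against 0.829 to 6.00 CPM in the 6. The summed level of the 10 cortical glutamatergic genes was 1155 CPM there and 72.3 to 89.1 CPM in the 6. Where the call of a slope or an overlap of ranges below turned on this library, the value without it is given too.

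**Figure D1:**
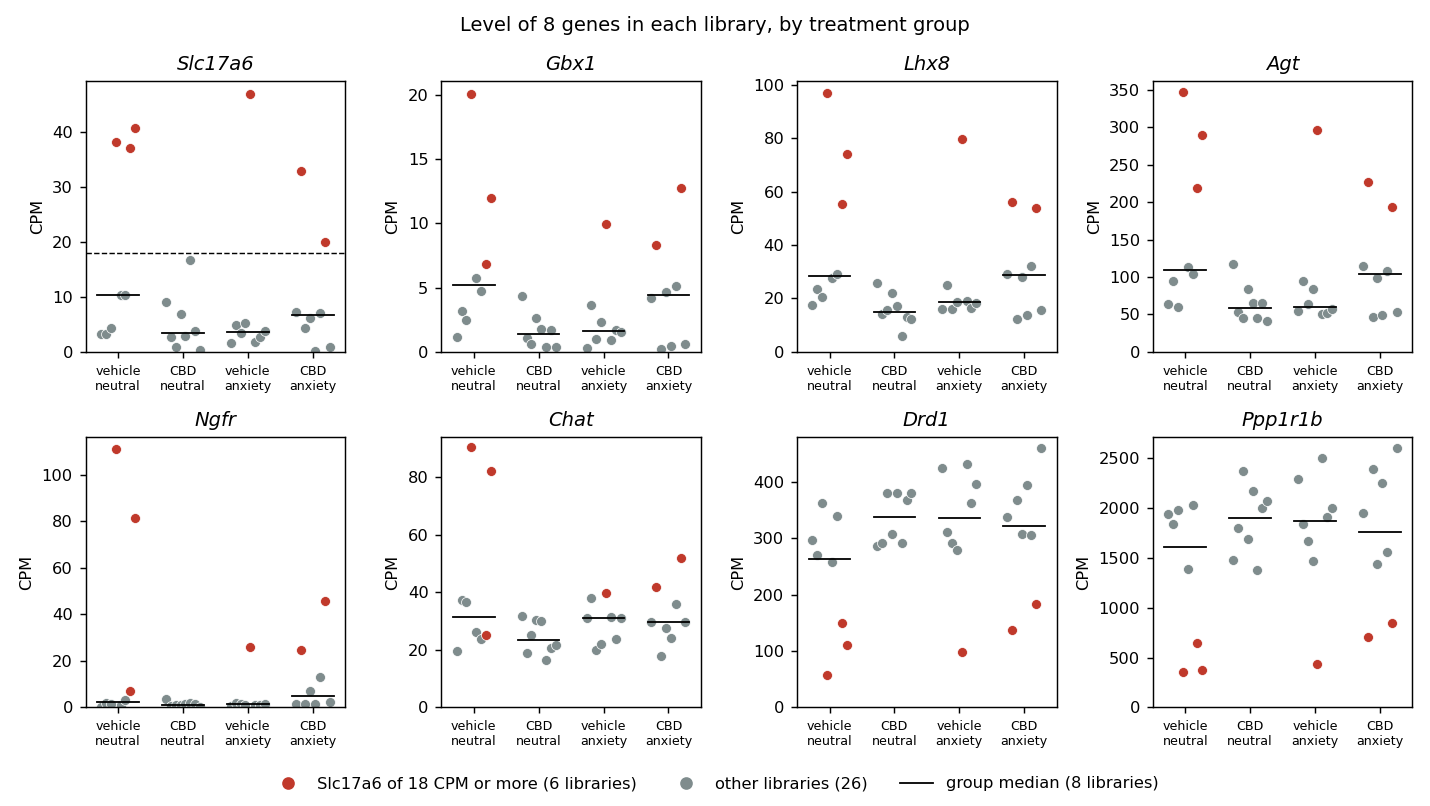
Level in CPM of 8 genes in each of the 32 libraries, by treatment group. Red points are the 6 libraries with Slc17a6 of 18 CPM or more (dashed line in the Slc17a6 panel), grey points the other 26, and short bars the group medians. The red points lie above all grey ones for Slc17a6, Gbx1, Lhx8 and Agt and below all of them for Drd1 and Ppp1r1b, while Ngfr and Chat overlap through vehicle neutral-cue library 7.

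A large part of the transcriptome differed along this split. With the treatment label as a covariate and all 32 libraries, 3643 of 17315 genes (21% of those tested) passed an adjusted p of 0.05 in edgeR's quasi-likelihood test as higher in the 6, and 3433 (19.8%) as lower. The median log2 difference over all genes was -0.01, and 48.7% of genes lay above 0. In 809 genes (4.67%) each of the 6 lay above each of the 26, and in 490 (2.83%) below. That balance depended on the scaling: with TMM-scaled CPM the counts were 598 and 602, so that 49.8% in place of 62.3% of the separated genes lay above. As the rule used this contrast, the counts give only the background for the lists below.

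The largest separated differences upward included a transcription factor, a glycine receptor subunit and a secreted ligand. Tp73, a p53 family factor known from Cajal-Retzius cells, was at 2.79 to 8.32 CPM in the 6 and 0 to 1.2 CPM in the others. Glra1, the alpha1 subunit of the glycine receptor, was at 3.78 to 18.5 CPM against 0.0468 to 1.44 CPM (log2 difference 3.79, SE 0.35). Shh, the secreted ligand Sonic hedgehog, was at 20.7, 9.18 and 10.6 CPM in vehicle neutral-cue libraries 4, 7 and 8, 13.5 CPM in vehicle anxiety-cue library 5, and 11.8 and 9.46 CPM in libraries 2 and 7 of the CBD anxiety-cue group. In the other 26 it did not exceed 3.60 CPM, and the ranges lay far apart (log2 difference 2.74, SE 0.29).

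Several receptors were among the named genes with large differences. The galanin receptor Galr1 had a log2 difference of 3.29 (SE 0.42), the neurokinin B receptor Tacr3 one of 2.69 (SE 0.27) and the neurotensin receptor Ntsr1 one of 2.52 (SE 0.30). The prolactin receptor Prlr stood at 2.07 (SE 0.30) and Irs4, an adaptor of insulin receptor signalling, at 3.06 (SE 0.43). The semaphorin Sema3c, a secreted axon guidance cue, was at 69.8 to 136 CPM against 9.45 to 35.6 CPM. These genes were picked from those whose ranges did not overlap, so their separation was set by that choice and is no further result.

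Of the 7 basal forebrain and pallidal transcription factors, 6 were called higher and 1 lower, beside 21% and 19.8% of all genes. Their median log2 difference was 1.34, where all genes had -0.01. Their summed level was 273 to 453 CPM in the 6 and 78.8 to 176 CPM in the others. Lhx6, which specifies GABAergic neurons of the medial ganglionic eminence, was at 126 to 200 CPM against 16.6 to 71.9 CPM (log2 difference 1.65, SE 0.21). Nkx2-1, the factor that establishes that domain, was at 13.4 to 30.2 CPM against 4.08 to 9.76 CPM. Zic1, a zinc finger factor of septum and diagonal band, was at 30.9 to 72.1 CPM against 10.0 to 27.0 CPM. The member called lower was Dlx6, a factor of striatal and other GABAergic neurons, at 22.8 to 27.3 CPM against 23.7 to 40.7 CPM.

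All 7 cholinergic genes were called higher (median 0.96), beside 21% of all genes, but none of them separated the libraries fully. Chat, the enzyme that makes acetylcholine, was at 90.4, 25.1 and 82.0 CPM in vehicle neutral-cue libraries 4, 7 and 8. It was at 39.7 CPM in vehicle anxiety-cue library 5, and at 41.8 and 51.8 CPM in libraries 2 and 7 of the CBD anxiety-cue group. The others held 16.5 to 38.0 CPM, so only vehicle neutral-cue library 7 lay within their range. Ngfr, the p75 neurotrophin receptor that marks cholinergic neurons of the basal forebrain and is sparse in those of the striatum, had the largest log2 difference of the list, at 4.37 (SE 0.45). In the same order of libraries Ngfr was at 111, 6.95, 81.3, 25.9, 24.7 and 46.0 CPM, against 0.236 to 13.0 CPM. The summed cholinergic level thus reached 973 CPM in vehicle neutral-cue library 4 and 333 CPM in library 7, beside 189 to 379 CPM in the others.

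Among the 16 genes of fast-firing projection neurons, 13 were called higher and 1 lower (median 0.85), beside 21% and 19.8% of all genes. Their summed level was 3375 to 5201 CPM in the 6 and 2118 to 3382 CPM in the others. These ranges overlapped through CBD anxiety-cue library 7. Kcnc2, a Kv3 potassium channel that permits rapid firing, was at 97.2 to 145 CPM against 19.5 to 67.3 CPM. Nefh, the heavy neurofilament of thick axons, was at 207 to 361 CPM against 41.0 to 190 CPM. Pvalb, the calcium buffer parvalbumin, had a log2 difference of 0.99 (SE 0.27) and overlapping ranges. The member called lower was Kcna1, a Kv1 channel, at 155 to 187 CPM against 182 to 311 CPM.

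Of the 10 lateral septal genes, 6 were called higher (median 0.79), beside 21% of all genes. Among them was Trpc4, a cation channel dense in lateral septum, at 13.9 to 23.2 CPM against 3.78 to 16.9 CPM. The 16.9 CPM belonged to CBD neutral-cue library 6, and the next highest of the 26 held 9.76 CPM, so Trpc4 was separated without that library. The summed level of this list was 131 to 180 CPM in the 6. The same library held 156 CPM, and the other 25 held 93 to 134 CPM, so that without it only CBD anxiety-cue library 7 of the 6 lay within their range.

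Genes of farther regions were present at mixed levels. Of the 10 thalamic and habenular genes, 7 had a median of at least 1 CPM in the 6, and their summed level was 86.7 to 117 CPM against 50.2 to 94.7 CPM. Of 8 tested thalamic and habenular genes, 4 were called higher (median 0.27), beside 21% of all genes. The 4 included Tcf7l2, a Wnt effector abundant in thalamus, at 18.7 to 35.1 CPM against 5.11 to 17.1 CPM. Pou4f1, which defines the medial habenula, was at 0 in all 6, and Shox2 was under 0.5 CPM in each. In the list for hypothalamus, preoptic area and bed nucleus, 5 of 15 genes could be tested. Of these, 2 were called higher and 1 lower, beside 21% and 19.8% of all genes. Pmch, the gene of melanin-concentrating hormone, was at 0 in all 6, and Oxt, Sim1, Otp, Hcrt and Hmx2 were under 0.5 CPM in each.

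**Figure D2:**
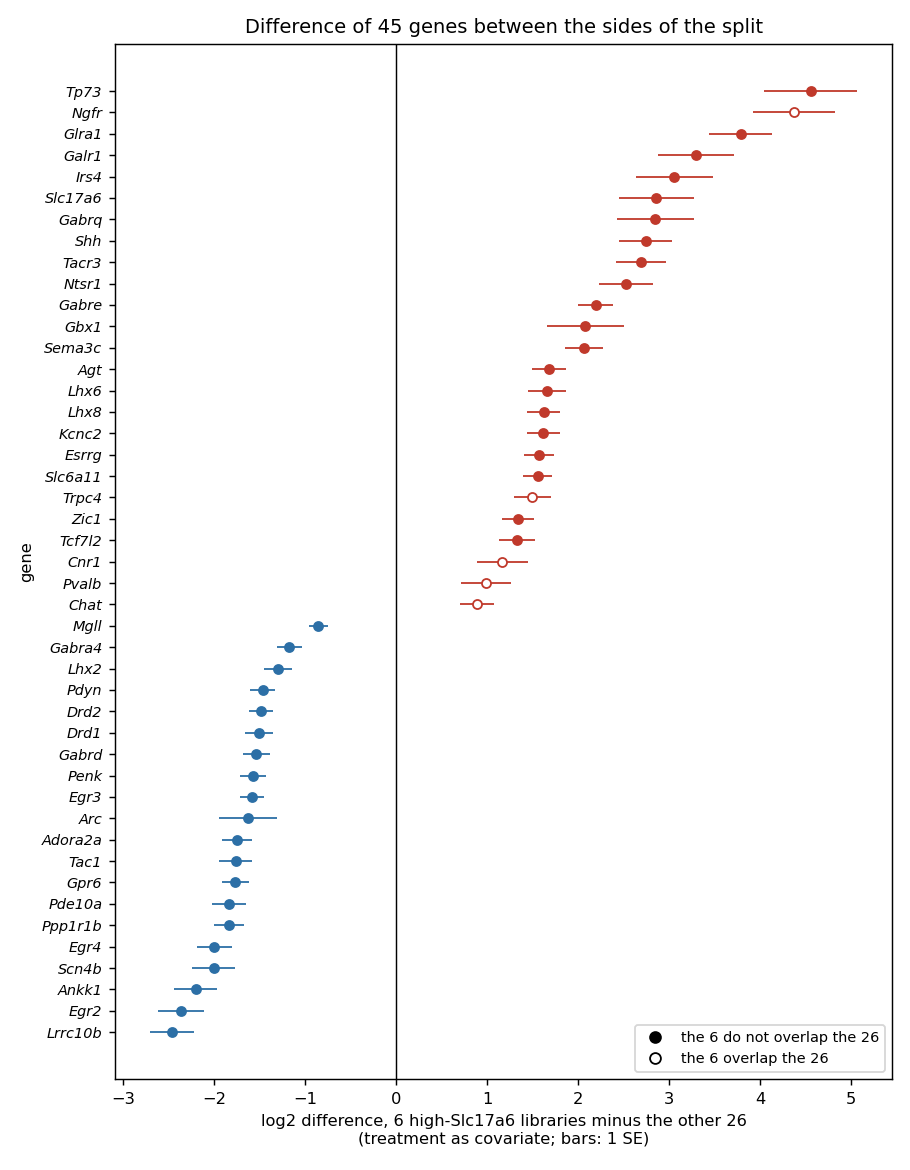
Log2 difference between the 6 libraries and the other 26 for named genes ordered by that difference, with bars of 1 SE from the edgeR fit. Filled points mark genes whose ranges in CPM do not overlap. Among the genes drawn, those of basal forebrain neurons lie right of 0 and those of spiny neurons left of it. List members called the other way are not drawn: Dlx6 (-0.51), Kcna1 (-0.40), Grik3 (0.28), Fos (0.59) and Jun (0.29). The values are a description because Slc17a6 chose the libraries.

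The genes of spiny neurons were lower in the 6, without exception in the list shared by both pathways. There 22 of 22 were called lower (median -1.40), beside 19.8% of all genes. In 18 of them the 6 lay below all 26 other libraries, as in 2.83% of all genes. The summed level of that list was 2524 to 5196 CPM against 7713 to 13060 CPM, a ratio of medians of 0.381. Ppp1r1b, the dopamine-regulated phosphatase inhibitor DARPP-32, was at 352, 643 and 378 CPM in vehicle neutral-cue libraries 4, 7 and 8, 436 CPM in vehicle anxiety-cue library 5, and 705 and 848 CPM in libraries 2 and 7 of the CBD anxiety-cue group. The lowest of the other 26 held 1373 CPM. In bulk RNA, fewer cells of a type and less RNA per cell cannot be told apart.

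Both output pathways of the striatum took part. Of the 7 direct-pathway genes, 6 were called lower (median -1.11), beside 19.8% of all genes. Drd1, the D1 dopamine receptor, was at 57.3, 150 and 110 CPM in vehicle neutral-cue libraries 4, 7 and 8, 97.4 CPM in vehicle anxiety-cue library 5, and 137 and 183 CPM in libraries 2 and 7 of the CBD anxiety-cue group, against 258 to 460 CPM. The peptide genes Tac1 (substance P) and Pdyn (dynorphin) were separated in the same direction, with log2 differences of -1.77 (SE 0.18) and -1.47 (SE 0.14).

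Of the 7 indirect-pathway genes, 6 were called lower and 1 higher (median -1.53), beside 19.8% and 21% of all genes. The adenosine receptor Adora2a was at 57.4 to 160 CPM against 237 to 433 CPM, the enkephalin precursor Penk at 198 to 343 CPM against 474 to 964 CPM, and Drd2, the D2 dopamine receptor, at 42.3 to 90.9 CPM against 138 to 258 CPM. The exception was Grik3, a kainate receptor subunit, with a log2 difference of 0.28 (SE 0.11) and overlapping ranges.

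The largest separated differences downward included genes known for their striatal expression and genes induced by neuronal activity. Lrrc10b was at 11.9 to 35.4 CPM against 62.1 to 171 CPM (log2 difference -2.46, SE 0.24). Scn4b, a sodium channel beta subunit dense in spiny neurons, stood at -2.01 (SE 0.23) and the striatal phosphodiesterase Pde10a at -1.84 (SE 0.19). Lhx2, a transcription factor of the telencephalon, was lower too, at 5.51 to 10.4 CPM against 13.1 to 29.1 CPM. All 3 genes of the telencephalic list were called lower, beside 19.8% of all genes.

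Of 17 immediate early genes, 11 were called lower and 2 higher (median -1.12), beside 19.8% and 21% of all genes. Their summed level was 331 to 426 CPM in the 6 and 560 to 1352 CPM in the others. Egr2, a zinc finger factor induced by activity, was at 1.90, 1.63 and 0.917 CPM in vehicle neutral-cue libraries 4, 7 and 8, 2.25 CPM in vehicle anxiety-cue library 5, and 2.72 and 3.21 CPM in libraries 2 and 7 of the CBD anxiety-cue group. The other 26 held 6.81 to 18.9 CPM. Egr4, Egr3 and Arc, the last a synaptic protein of the spine, were also separated downward, Arc at 13.0 to 23.8 CPM against 23.9 to 144 CPM. The 2 higher members were Fos, with a log2 difference of 0.59 (SE 0.24), and Jun, with 0.29 (SE 0.10), and both had overlapping ranges. Fos was not called without CBD anxiety-cue library 2, vehicle neutral-cue library 4 or 8 or vehicle anxiety-cue library 5. The summed levels of the early genes and of the spiny neuron genes were both low in the 6, and what part one had in the other was not tested. The slopes of both lists among the other 26 are given below.

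Inhibitory receptors showed opposite differences by subunit. GABA-A receptors are pentamers whose subunits set where on the neuron they sit and how they respond. Of 11 subunit genes, listed without those of the most widespread synaptic type, 4 were called higher and 5 lower. Of all genes 21% were called higher and 19.8% lower. Gabrb2, a synaptic beta subunit outside that list, was at 312 to 477 CPM against 122 to 250 CPM. Gabre and Gabrq, the rarer epsilon and theta subunits, stood at 2.19 (SE 0.19) and 2.85 (SE 0.43). Gabrd, the delta subunit of extrasynaptic receptors, was at 9.22 to 22.7 CPM against 38.3 to 66.8 CPM, and Gabra4, its usual partner in striatum, at 53.5 to 118 CPM against 125 to 241 CPM.

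The endocannabinoid genes, which bear on the treatment given, were called in both directions, as were all genes. Of 8, 3 were called higher and 3 lower, beside 21% and 19.8% of all genes. Cnr1, the CB1 receptor, was at 248, 81.9 and 163 CPM in vehicle neutral-cue libraries 4, 7 and 8, 114 CPM in vehicle anxiety-cue library 5, and 104 and 117 CPM in libraries 2 and 7 of the CBD anxiety-cue group. The median of the other 26 was 57.4 CPM, but CBD neutral-cue library 6, the one with cortical transcripts, held the highest value at 265 CPM, and without it the highest of the others was 82.1 CPM, above vehicle neutral-cue library 7 alone of the 6. Mgll, the lipase that degrades 2-arachidonoylglycerol, was at 111 to 151 CPM against 163 to 298 CPM. Napepld, an enzyme of anandamide synthesis, was at 15.2 to 20.6 CPM against 9.75 to 15.0 CPM.

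Glial genes differed along the split as well, and unequally. Of 19 oligodendrocyte and myelin genes, 18 were called higher (median 0.44), beside 21% of all genes. Mbp, the myelin basic protein, was at 3601 to 4776 CPM against 1376 to 3791 CPM. Of 16 astrocyte genes, 8 were called higher (median 0.21), beside the same 21%. The 4 astrocyte genes linked to diencephalon and pallidum gave a median of 1.41. In all 4 the 6 lay above every other library, as in 4.67% of all genes. Agt, the angiotensin precursor, was at 347, 219 and 289 CPM in vehicle neutral-cue libraries 4, 7 and 8, 296 CPM in vehicle anxiety-cue library 5, and 227 and 194 CPM in libraries 2 and 7 of the CBD anxiety-cue group, against 41.9 to 118 CPM. Slc6a11, the GABA transporter GAT-3, was at 290 to 503 CPM against 85.0 to 194 CPM.

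Markers of other tissue were present to different extents. None of the 16 endothelial and mural genes, 7 meningeal genes, 6 tested liver genes and 6 fat cell genes was called in either direction in edgeR, and microglial genes were called higher in 3 of 13, beside 21% of all genes. Of 7 tested choroid plexus genes, 3 were called higher and 1 lower, beside 21% and 19.8% of all genes. The chloride channel gene Clic6 led the higher ones, at 1.36 to 9.76 CPM against 0 to 0.520 CPM. Its median in the others was 0.0603 CPM, and the filter could pass genes seen in the 6 alone. Of 7 tested ependymal genes, 1 was called higher and 3 lower (median -0.57). The choroid plexus genes Folr1, Kcnj13 and Cldn2 were under 0.5 CPM in each of the 6. The summed fat cell level was 120.3 CPM in vehicle neutral-cue library 4 and 54.4 CPM in vehicle anxiety-cue library 5, and 1.63 to 15.3 CPM in the other 4. The summed meningeal level was 148 CPM in CBD anxiety-cue library 2 and 23.8 to 54.4 CPM in the other 5. The part of these tissues in the differences above was not tested. A fit with terms for the liver gene Alb and the fat cell gene Plin1 called 7187 genes along the split, beside 7076 without them. Such a count does not measure that part, and the fit had no term for meningeal or choroid plexus genes.

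**Figure D3:**
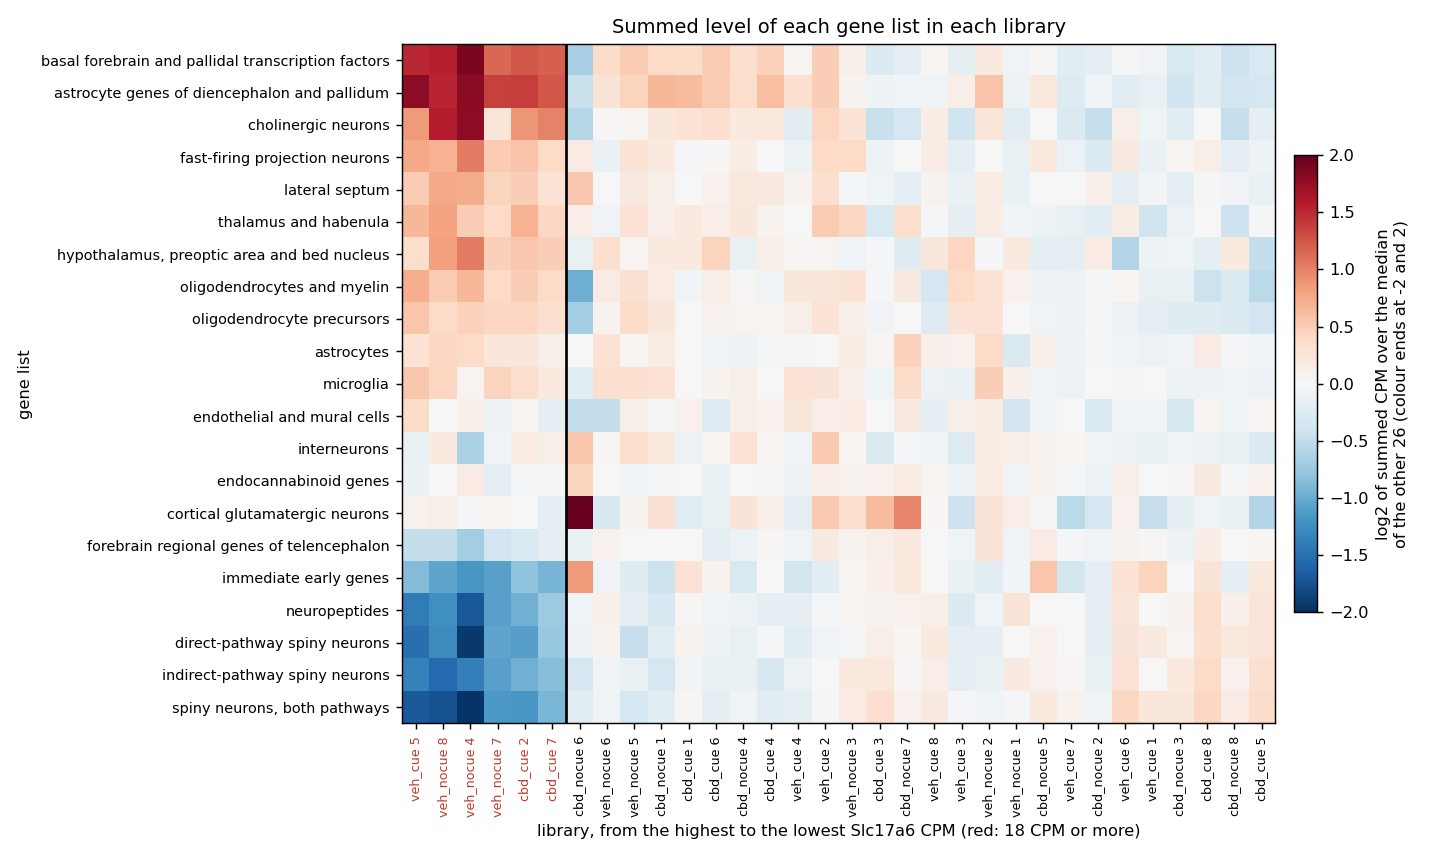
Summed CPM of each gene list (rows) in each library (columns, from the highest to the lowest Slc17a6), as the log2 of its ratio to the median of the other 26 libraries, with colours limited to 2 in either direction (veh is vehicle, nocue the neutral cue and cue the anxiety cue). The 6 libraries at the left end share high pallidal, fast-firing and diencephalic astrocyte lists and low spiny neuron lists, while the cortical row is highest in CBD neutral-cue library 6.

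The 6 were not alike in degree. Vehicle neutral-cue library 4 held the highest sums for pallidal factors (453 CPM), cholinergic genes (973 CPM) and fast-firing genes (5201 CPM) and the lowest for spiny neuron genes (2524 CPM). Vehicle neutral-cue library 8 resembled it in cholinergic (836 CPM) and spiny neuron sums (2927 CPM). Vehicle anxiety-cue library 5 led in Slc17a6 and in the oligodendrocyte sum (13430 CPM), but not in cholinergic genes (506 CPM). Slc17a6 and the cholinergic genes thus gave different orders of the same libraries.

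The remaining libraries lay closer to the other 26. CBD anxiety-cue library 7, lowest of the 6 in Slc17a6, also held the lowest fast-firing (3375 CPM) and oligodendrocyte sums (10590 CPM) and the highest spiny neuron sum (5196 CPM), yet its cholinergic sum was 560 CPM. CBD anxiety-cue library 2 held a spiny neuron sum of 4404 CPM and a pallidal sum of 293 CPM. Vehicle neutral-cue library 7 had the lowest pallidal (273 CPM) and cholinergic sums (333 CPM) with a spiny neuron sum of 4444 CPM, so its Slc17a6 of 37.1 CPM came with few cholinergic transcripts.

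The pallidal, cholinergic and spiny neuron lists differed in the same direction inside each treatment group that held such libraries. The median log2 difference of the pallidal factors was 1.58 within the vehicle neutral-cue group (3 libraries against 5), 1.29 within the CBD anxiety-cue group (2 against 6) and 1.62 for the 1 vehicle anxiety-cue library against 7. For the spiny neuron genes of both pathways the medians were -1.48, -1.20 and -1.86. For the cholinergic genes they were 1.40, 0.74 and 0.50. Several further lists also kept 1 sign. The medians were 0.902, 0.665 and 0.96 for the fast-firing genes and 1.41, 1.13 and 1.82 for the diencephalic astrocyte genes. The lateral septal genes had 0.886, 0.821 and 1.02 and the oligodendrocyte genes 0.335, 0.486 and 0.582. The immediate early genes had -1.08, -1.27 and -0.977. Some lists had mixed signs: the medians of the meningeal genes were -0.42, 0.66 and 0.23, and those of the cortical genes -0.23, -0.06 and 0.29. A test of the difference of the split between the vehicle neutral-cue and CBD anxiety-cue groups called 0 of 17315 genes (0%) in edgeR, 709 at an unadjusted p under 0.05 and 6 in DESeq2. Without CBD anxiety-cue library 7 edgeR called 10 genes, and without vehicle neutral-cue library 7 it called 4.

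Below the threshold, the level of Slc17a6 still varied, and its order among the 26 was not used to choose any library. There edgeR fitted each gene's slope, as the change in log2 level per log2 unit of Slc17a6, with the treatment label as a covariate. Of 17314 genes, 514 (2.97%) rose with Slc17a6 and 160 (0.924%) fell, at an adjusted p under 0.05. The median slope of all genes was close to 0, and 48.4% were above it. Without the 2 libraries farthest from the median, CBD anxiety-cue library 5 at 0.208 CPM and CBD neutral-cue library 8 at 0.295 CPM, 401 genes passed, 325 up and 76 down.

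Several genes named in the comparison with the 6 rose with Slc17a6 among the 26. Gbx1 had a slope of 0.71 (SE 0.15, adjusted p = 0.0048), Shh 0.50 (SE 0.08, adjusted p = 0.000558) and Galr1 0.77 (SE 0.15, adjusted p = 0.00244). Gabrq had a slope of 0.72 (adjusted p = 0.000558) and Ntsr1 one of 0.46 (adjusted p = 0.000651). For the fast-firing genes Kcnc2 and Esrrg, the latter an orphan nuclear receptor, the slopes were 0.28 (adjusted p = 8.83e-05) and 0.22 (adjusted p = 0.00359). Trpc4 had a slope of 0.28 (adjusted p = 0.00115) and Agt 0.23 (adjusted p = 0.0059). These calls held when any 1 of the 26 libraries was left out.

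The smallest p-values belonged to genes outside the pallidal lists. Slc6a7, a proline transporter of glutamatergic terminals, had a slope of 0.50 (SE 0.05, adjusted p = 4.38e-06), and Ndst4, an enzyme of heparan sulphate, one of 0.70 (SE 0.07, adjusted p = 4.38e-06). Both were high in CBD neutral-cue library 6, at 55.3 and 47.6 CPM. Without it their slopes were 0.43 (adjusted p = 3.24e-05) and 0.59 (adjusted p = 4.7e-05). Tbr1, a factor of cortical excitatory neurons, had a slope of 0.93 (adjusted p = 0.00204) that did not pass without that library (0.43, adjusted p = 0.0665).

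Some spiny neuron genes fell with Slc17a6 among the 26. In the list of both pathways 9 of 22 fell, 0 rose and 13 did not pass (median slope -0.11). Of all genes 0.924% fell. In the indirect-pathway list 4 of 7 fell and in the direct-pathway list 1 of 7, Pdyn at -0.09 (adjusted p = 0.0406), a call lost in 14 of 26 fits that left out 1 library. Adora2a had a slope of -0.12 (SE 0.03, adjusted p = 0.00652), Penk -0.15 (SE 0.03, adjusted p = 0.0042), Gpr6, an orphan receptor of indirect-pathway neurons, -0.13 (adjusted p = 0.00373) and Ppp1r1b -0.14 (adjusted p = 0.0161). Drd2, at -0.12 (adjusted p = 0.00743), did not pass without the 2 farthest libraries (adjusted p = 0.0541). Drd1, at -0.10 (adjusted p = 0.0557), missed the threshold with all 26 and passed without CBD anxiety-cue library 3 or vehicle neutral-cue library 2 or 6. Outside the lists, Chst15, an enzyme of chondroitin sulphate, fell most clearly, at -0.13 (adjusted p = 8.83e-05).

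Other genes that set the 6 apart had no slope past the threshold, or one that turned on few libraries. Lhx8 had a slope of 0.15 (adjusted p = 0.219) and passed without CBD neutral-cue library 6 (0.21, adjusted p = 0.00413). Mbp had one of 0.06 (adjusted p = 0.558), which passed without that library (0.11, adjusted p = 0.0217), and 0 of the 19 oligodendrocyte genes passed with all 26. Chat stood at 0.01 (SE 0.05, adjusted p = 0.973), with a sign that turned in some settings. Lhx6 passed at 0.25 (adjusted p = 0.0248) but not without CBD neutral-cue library 1 or CBD anxiety-cue library 5 or 8. Ngfr, at 0.50 (adjusted p = 0.0184), did not pass without CBD anxiety-cue library 6 or CBD neutral-cue library 8. Of the pallidal factors 2 of 7 rose and of the diencephalic astrocyte genes 3 of 4, beside 2.97% of all genes. The astrocyte gene that did not pass, Slc6a9, had a slope of 0.11 (adjusted p = 0.102). It passed without CBD neutral-cue library 6 (0.15, adjusted p = 0.00528). Of the cholinergic genes 1 of 7 rose and of the lateral septal genes 1 of 10. Of the 17 immediate early genes 1 rose and 0 fell (median slope 0.05). Egr2 stood at -0.03 (adjusted p = 0.92), Egr4 at -0.03 (adjusted p = 0.854) and Arc at 0.07 (adjusted p = 0.831). The summed early gene level was highest in CBD neutral-cue library 6, at 1352 CPM.

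**Figure D4:**
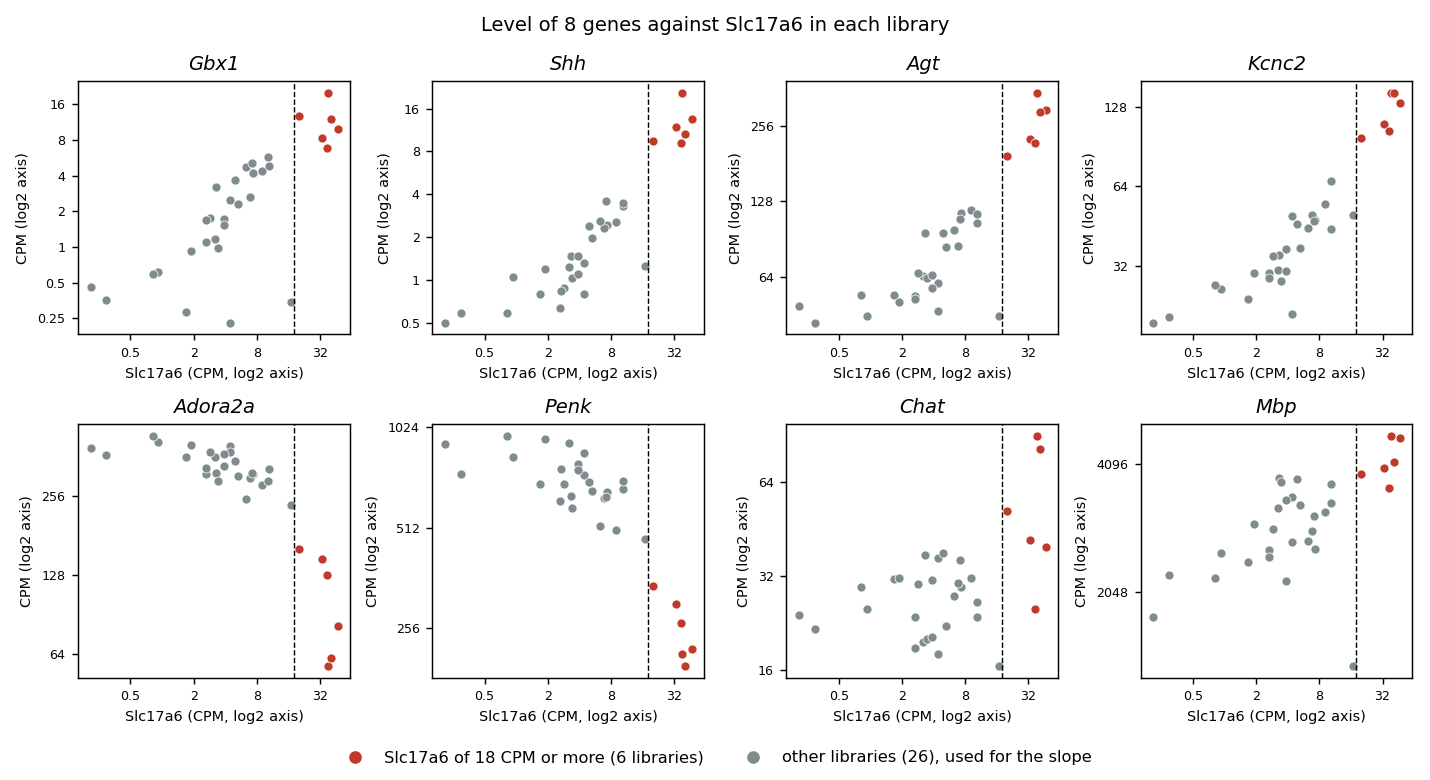
Level in CPM of 8 genes against Slc17a6 in CPM, both axes on a log2 scale, 1 point per library, with the 6 libraries in red, the other 26 in grey and a dashed line at 18 CPM. Among the grey points Gbx1, Shh, Agt and Kcnc2 rise with Slc17a6 and Adora2a and Penk fall, whereas Chat and Mbp have no slope past the threshold, and CBD neutral-cue library 6 at 16.8 CPM of Slc17a6 lies low for Gbx1, Agt and Mbp.

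The 6 were unevenly spread over the treatments. With the neutral cue, 3 of them had received vehicle and 0 CBD, and with the anxiety cue 1 had received vehicle and 2 CBD. Fisher's exact test over the 4 groups gave p = 0.444. The median level of Slc17a6 was 10.4, 3.38, 3.64 and 6.69 CPM in the same order. Mean log2 CPM was 3.54 ± 1.57 (SD, n = 8) with vehicle and the neutral cue and 1.74 ± 1.72 (SD, n = 8) with CBD and the neutral cue. That difference of -1.80 gave p = 0.046 in a 2-sided exact permutation test and 0.184 after adjustment over the 4 contrasts. The anxiety cue in vehicle libraries gave -1.36 (exact permutation p = 0.0939, adjusted 0.188), CBD with the anxiety cue 0.09 (p = 0.928, adjusted 0.928) and the anxiety cue in CBD libraries 0.53 (p = 0.599, adjusted 0.799). No contrast passed after adjustment.

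The treatment contrasts of all genes were then set beside the same contrasts without the 6. These contrasts share control libraries with one another. With all 32 libraries edgeR called 0 of 17315 genes (0%) in each of the 4. The numbers at an unadjusted p under 0.05 were 2191 for the cue in vehicle libraries, 273 for CBD with the anxiety cue, 3916 for CBD with the neutral cue and 704 for the cue in CBD libraries. DESeq2 called 0, 0, 379 and 0. For CBD with the neutral cue, edgeR called 190 genes without vehicle anxiety-cue library 5 and 74 without CBD anxiety-cue library 2. Without the 6, edgeR called 31 genes (0.179%) for CBD with the neutral cue and 13 (0.0751%) for the cue in vehicle libraries, all of them lower. In the other contrasts, CBD under the anxiety cue and the cue in CBD libraries, it again called 0 (0%), with 441 and 576 at an unadjusted p under 0.05. DESeq2 was not run without the 6.

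The list medians of these contrasts shifted when the 6 were left out. For CBD with the neutral cue, whose vehicle group holds 3 of the 6, the median log2 fold change of the pallidal factors was -1 with all libraries and -0.39 without the 6. The cholinergic median went from -0.78 to -0.23 and the diencephalic astrocyte median from -0.90 to -0.20. The spiny neuron median of both pathways went from 0.53 to 0.08, with 22 and then 19 of 22 genes above 0, and that of the immediate early genes from 0.64 to 0.24. The cortical median moved away from 0, from 1.02 to 1.73, and CBD neutral-cue library 6 belongs to this contrast. The medians of all genes were 0.01 with all libraries and close to 0 without the 6.

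For the cue in vehicle libraries some neuronal lists lay farther from 0 without the 6. The interneuron median went from -0.08 to -0.22 and the neuropeptide median from -0.09 to -0.29. The neuronal lists named next lay nearer to 0, and so did the early genes. The cholinergic median went from -0.54 to -0.13, the pallidal median from -0.66 to -0.28, the spiny neuron median from 0.44 to 0.15 (22 and then 20 of 22 genes above 0) and the immediate early gene median from 0.32 to 0.03. Single genes did likewise. Lhx8 with CBD and the neutral cue stood at -1.42 (SE 0.39, adjusted p = 0.08) and without the 6 at -0.58 (SE 0.24, adjusted p = 0.362). Drd1 in that contrast stood at 0.56 (SE 0.29) and then at 0.15 (SE 0.13), and Agt at -1.29 (SE 0.40) and then at -0.43 (SE 0.24).

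In the CBD anxiety-cue group, which holds 2 of the 6, the sign of some medians turned. For the cue in CBD libraries the spiny neuron median was -0.08 with all libraries and 0.14 without the 6, while the pallidal median was 0.55 and 0.24. For CBD with the anxiety cue the spiny neuron median was -0.03 and 0.07 and the pallidal median 0.19 and 0.14. None of the members of these lists passed in any of the 4 contrasts, with or without the 6.

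**Figure D5:**
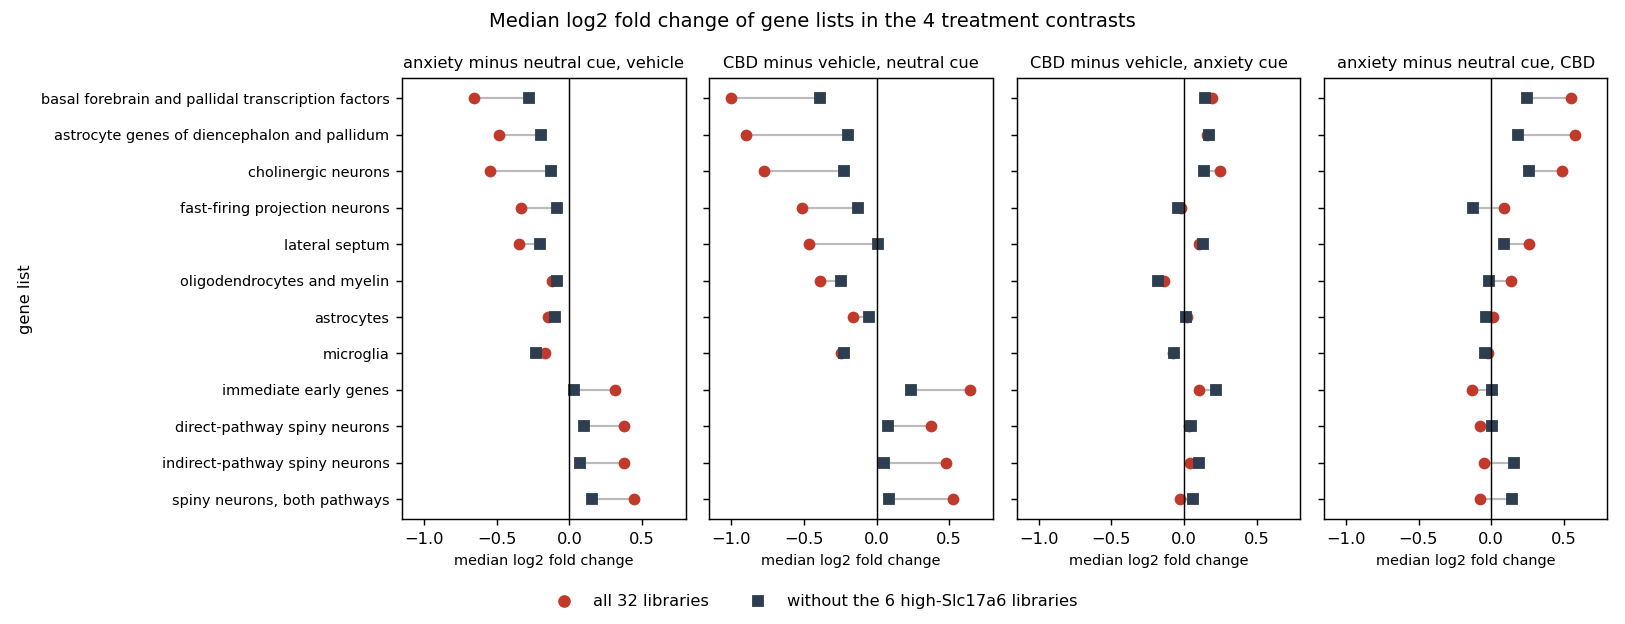
Median log2 fold change of gene lists in the 4 treatment contrasts, with all 32 libraries and without the 6 that held Slc17a6 of 18 CPM or more. In the panels of the neutral-cue CBD contrast and of the vehicle cue contrast, the pallidal, cholinergic and diencephalic astrocyte medians lie nearer to 0 without the 6.

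Few genes of the lists were among those called only after the 6 were left out: 1 meningeal and 1 fat cell gene, both lower for CBD with the neutral cue. Gpnmb, a glycoprotein of activated macrophages and microglia, fell by 1.48 on the log2 scale with CBD and the neutral cue (SE 0.24, adjusted p = 0.00661), and Cd63, a protein of late endosomes, fell by 0.57 (SE 0.09, adjusted p = 0.00661). Vim, the intermediate filament vimentin, fell by 1.84 (SE 0.30, adjusted p = 0.00661) and Mfng, a Notch-modifying glycosyltransferase, by 0.90 (SE 0.15, adjusted p = 0.00856). For the cue in vehicle libraries, the fall in Gpnmb was 1.55 and in Cd63 0.60, each with an adjusted p of 0.00848.

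These calls rested on the 5 vehicle neutral-cue libraries that remained, and on few of them. Gpnmb was at 21.3, 28.6 and 26 CPM in libraries 1, 2 and 3 of that group. Vim was at 89.7, 104 and 107 CPM in the same libraries. Among the 6, CBD anxiety-cue library 2 held comparable levels, with Gpnmb at 33.2 CPM and Vim at 96.1 CPM. Meningeal genes were high in these same 4 libraries, with summed levels of 141, 153 and 144 CPM in vehicle neutral-cue libraries 1, 2 and 3 and 148 CPM in CBD anxiety-cue library 2. No other library exceeded 68.9 CPM, and the part of meningeal tissue in these calls was not tested. With library 2 of the vehicle neutral-cue group also left out, edgeR called 0 genes in both contrasts (2167 and 2020 at an unadjusted p under 0.05). With library 1, 3, 5 or 6 left out in its place, it called 5, 117, 27 and 52 genes for the cue in vehicle libraries. For CBD with the neutral cue those numbers were 7, 0, 34 and 83.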

How the data were processed

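Counts of reads per gene for 34322 symbols were used as the authors deposited them. The submitters' processing notes name STAR, featureCounts and DESeq2 and the builds mRatBN7.2 and Rnor_6.0. The sources used here give no versions, no role for either build and no strand setting, which leaves overlapping genes and near-identical copies uncertain. RNA was selected by polyA, per the labels' protocols. The members and the gene lists were chosen with earlier results of these data known.

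Levels are CPM by column sums. Tests used edgeR 4.0.16 in R 4.3.3 with TMM. The function filterByExpr (a minimum count of 10 in 6 libraries) kept 17315 genes and left out 17007. Benjamini-Hochberg adjustment ran over all genes tested, with a threshold of 0.05. The slope used log2 CPM of Slc17a6 with a prior count of 2. Named genes were the 15 largest separated differences in each direction, with a mean of at least 5 CPM on the higher side, up to 4 members per list, the clearest slopes and treatment calls, and preset markers. Not all are printed, and 2947 tested symbols that are locus or clone numbers were counted but not named. Of all symbols, 27234 (79.3%) matched a GRCr8 name table. Alternatives included DESeq2 1.42.0, other scalings, filters and thresholds, and leaving out libraries. The scripts were tested on simulated data. Of 112 pairs of libraries within groups none was a duplicate (chi-square of 5.24 to 102.7 per degree of freedom). Some items are not reported here.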

Additional observations from a re-analysis of the deposited data

Results flagged for a closer look

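Within groups of 8 libraries, the highest or lowest library stood off from the rest by more than Dixon's critical share of the group's range in 31 of 168 groups of values. Chance alone sets off about 1 in 20 groups of unrelated values, but these values are related and the count cannot be read against that share, since Slc17a6 chose some of the libraries. Many of these were vehicle anxiety-cue library 5, the only one of the 6 high-Slc17a6 libraries in its group. It was high for Slc17a6 (47.0 CPM), Gbx1 (9.94 CPM), Lhx8 (79.7 CPM), Ngfr (25.9 CPM), Agt (296 CPM), Shh (13.5 CPM) and Cnr1 (114 CPM) and low for Drd1 (97.4 CPM). Its summed levels stood off high for pallidal factors (352 CPM), diencephalic astrocyte genes (2162 CPM) and glutamate and GABA transport (3007 CPM). They stood off low for direct-pathway genes (402 CPM), indirect-pathway genes (599 CPM), spiny neuron genes of both pathways (3077 CPM), neuropeptides (662 CPM) and telencephalic genes (279.7 CPM).

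Of the other high-Slc17a6 libraries, vehicle neutral-cue library 4 stood off for choroid plexus genes (24.0 CPM) and CBD anxiety-cue library 2 for meningeal genes (148 CPM). CBD neutral-cue library 6 stood off for cortical genes (1155 CPM), endocannabinoid genes (954 CPM) and Cnr1 (265 CPM), and CBD neutral-cue library 7 for astrocyte genes (4849 CPM). CBD neutral-cue library 3 was high for liver (377 CPM), fat cell (82.6 CPM), meningeal (61.7 CPM) and choroid plexus genes (18.1 CPM). In the anxiety-cue groups, vehicle library 4 was high for liver genes (174 CPM), CBD library 1 for fat cell genes (38.3 CPM) and CBD library 3 for cortical genes (128 CPM). Vehicle anxiety-cue library 2 stood off for interneuron genes (565 CPM) and library 8 for genes of the subventricular zone (116 CPM).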

How the results depend on the processing

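Along the split, 5583 to 7960 genes were called over all settings, and 5583 to 7109 when 1 of the 6 was left out. The number of genes with a slope on Slc17a6 was 401 without the 2 farthest libraries, 904 in DESeq2, 924 without the treatment covariate and 479 to 802 when 1 of the 26 was left out. The slope of Chat turned to -0.031 without the 2 farthest libraries, to -0.0187 with Alb and Plin1 terms, and ranged from -0.00918 to 0.0358 when 1 library was left out. The difference of the split between groups gave 6 calls in DESeq2 and 0 to 10 when 1 library was left out. CBD with the neutral cue gave 379 calls in DESeq2 (210 higher, 169 lower), 31 without the 6, and 0 to 190 when 1 of the 6 was left out: 190 without vehicle anxiety-cue library 5 and 74 without CBD anxiety-cue library 2. The cue in vehicle libraries gave 13 without the 6. Without the 6 and 1 more vehicle neutral-cue library, CBD with the neutral cue gave 0 to 83 calls and the cue in vehicle libraries 0 to 117. With a term for the 6, or for Slc17a6, edgeR called 0 genes in all 4 contrasts (475 to 1580 and 433 to 1412 at an unadjusted p under 0.05). For the slopes and treatments, leaving out single libraries, alone or beside the 6, was chosen after seeing the data. The slopes without CBD neutral-cue library 6 were the exception. No paired analysis was possible because the replicate numbers follow deposition order and pair no libraries. With 1 to 3 such libraries in a group, values within groups rest on few libraries, and low-count genes such as Tp73 carry wide errors.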

Other observations

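Some values stood apart in 1 of the 6 libraries. The genes named here were also called higher along the split. Their log2 differences, which include that 1 library, were 1.49 for Rn45s, 2.96 for Rpph1 and 0.50 for Elovl5. Rn45s, the ribosomal RNA precursor, was at 1732 CPM in vehicle neutral-cue library 8 and at 37.2 to 131 CPM in the other 5. Rpph1, the RNA of ribonuclease P, was at 36.6 CPM in that library and at 0.163 to 1.51 CPM in the other 5. Elovl5, an elongase of polyunsaturated fatty acids, was at 47.4 CPM there and at 148 to 186 CPM in the other 5. These genes were chosen after their values were seen.

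Of 12 genes of fatty acid desaturation and elongation, 6 were called higher in the 6 libraries (median log2 difference 0.22), beside 21% of all genes. Among them was Elovl6, at 76.2 to 125 CPM against 46.8 to 73.9 CPM. Of 65 tested nuclear genes of the respiratory chain, 11 were higher and 3 lower (median 0.04), beside 21% and 19.8% of all genes.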
